A study of Mus musculus with 12 samples.

Results

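Genes of the citric acid cycle and of fatty acid oxidation were followed through 12 Affymetrix arrays of mouse hearts. The set was a list of 37 gene symbols, of which 35 were measured by a probe set that carried a single gene symbol, out of 19938 genes in all. Acsl1 and Cpt1b had no such probe set and were not used here. By role, the 35 comprised 3 pyruvate dehydrogenase genes, 14 citric acid cycle genes, 3 genes of fatty acid uptake, 3 of the carnitine shuttle, 6 of beta-oxidation, 3 of electron transfer from beta-oxidation, 2 regulators and 1 mitochondrial creatine kinase. The hearts were dissected from E8.75 embryos, an age at which the linear heart tube has begun to loop. There were 4 groups with 3 arrays each, which the titles number as biological replicates: wild type (WT), Nkx2-5 knockout (KO), Tbx5 KO, and the double KO, with both knockouts together. Nkx2-5 is a homeobox and Tbx5 a T-box transcription factor of heart muscle. The labels give neither the alleles, nor the strain, nor whether hearts were pooled for an array, and no other allele or agent is named for any group.

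The citric acid cycle oxidizes acetyl-CoA in the mitochondrial matrix and passes the electrons to the respiratory chain. Pyruvate dehydrogenase supplies acetyl-CoA from glucose and lactate, and beta-oxidation supplies it from fatty acids, which reach the matrix through lipoprotein lipase, the transporter CD36, cytosolic binding proteins and the carnitine shuttle. The adult heart draws most of its energy from fatty acids, whereas the early embryonic heart relies mainly on glucose and lactate.

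Values are log2 expression levels, and a change is the difference between the means of 2 groups on that scale, given ± its standard error with n = 3 arrays a group. A gene is called when limma's p for a comparison, adjusted by Benjamini and Hochberg over all 19938 genes, is under 0.05, and the words rose and fell are used for called genes. Cardiomyocyte marker genes were bright in every heart, with a mean level over 12 markers between 12.78 and 12.98 on the 12 arrays. The double KO arrays had a narrower spread of values over probe sets (SD 2.05 to 2.10) than the WT arrays (2.17 to 2.19), and the single KO arrays lay between them (2.13 to 2.16). Xist, which the inactive X chromosome expresses, read 11.46 to 12.32 on the WT and Tbx5 KO arrays and 6.44 to 8.16 on the Nkx2-5 KO and double KO arrays, and the Y-linked Eif2s3y read 5.07 to 6.92 and 10.33 to 10.67 in the same order. The sex of the embryos and the loss of Nkx2-5 therefore cannot be told apart, and this touches every comparison of Nkx2-5 KO or double KO with WT or Tbx5 KO. The Nkx2-5 probe set fell by 0.41 in Nkx2-5 KO hearts (adjusted p = 0.0499) and the Tbx5 probe set read 0.47 above WT in Tbx5 KO hearts (adjusted p = 0.127). In the double KO the Tbx5 probe set rose by 0.54 (adjusted p = 0.0193) and the Nkx2-5 probe set changed by -0.27 (adjusted p = 0.0878), so neither gene's probe set was called lower there. Since the deleted part of each gene is not named in the labels, neither probe set checks the genotypes. RNA came from whole hearts, in which fewer cells of a type and less RNA per cell cannot be told apart.

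Most of the measured genes of both pathways read lower in the double KO. Of the 35 members, 23 fell and 1 rose in double KO against WT, where 23.4% of all genes were called, 14.4% lower and 9.05% higher. The median change over the members was -0.46, beside 0.06 over all genes and -0.20 over the 3988 genes in the top 20% by mean level. The members are bright: 28 of the 35 lie in that top 20%, where 37.6% of genes fell, and 20 of those 28 fell. In the Nkx2-5 KO 5 members fell and none rose (where 4.43% of all genes were called, and 2.59% fell), and 4 of the 28 bright members fell beside 6.02% of bright genes. The median change was -0.22, beside 0.00 over all genes and -0.05 over the bright ones. In the Tbx5 KO 4 members fell and none rose (all genes 2.31% called, 1.31% lower), and 2 of the 28 bright members fell beside 2.41% of bright genes. Here the median change was -0.26, beside 0.01 over all genes and -0.05 over the bright ones. All 3 arrays of a KO group lay below all WT arrays for 19 of 35 members in Nkx2-5 KO (12.6% of all genes), 21 in Tbx5 KO (11.4%) and 27 in double KO (18.7%). The small counts of the single KOs changed when single arrays were left out. The Nkx2-5 KO count was 2 without WT replicate 1 or Nkx2-5 KO replicate 3 and 3 without WT replicate 3 or Nkx2-5 KO replicate 1. The Tbx5 KO count was 2 without WT replicate 1 or 2, or without Tbx5 KO replicate 2 or 3. The F test over all 4 genotypes called 20 members, beside 18.3% of all genes. For this test and for the non-overlap of arrays the share among the bright genes was not counted.

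The scale of the arrays moves the double KO count. With each array centred on its median, 29 members fell, all genes split 3769 lower to 779 higher in place of 2868 to 1804, and 45.7% of that bright 20% fell. After a further quantile normalization 16 members fell and 27.4% of that bright 20% fell. The median change over all genes went from 0.06 to -0.06 with centring and to -0.03 with quantile normalization, and the members' median from -0.46 to -0.59 and -0.32.

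**Figure D1:**
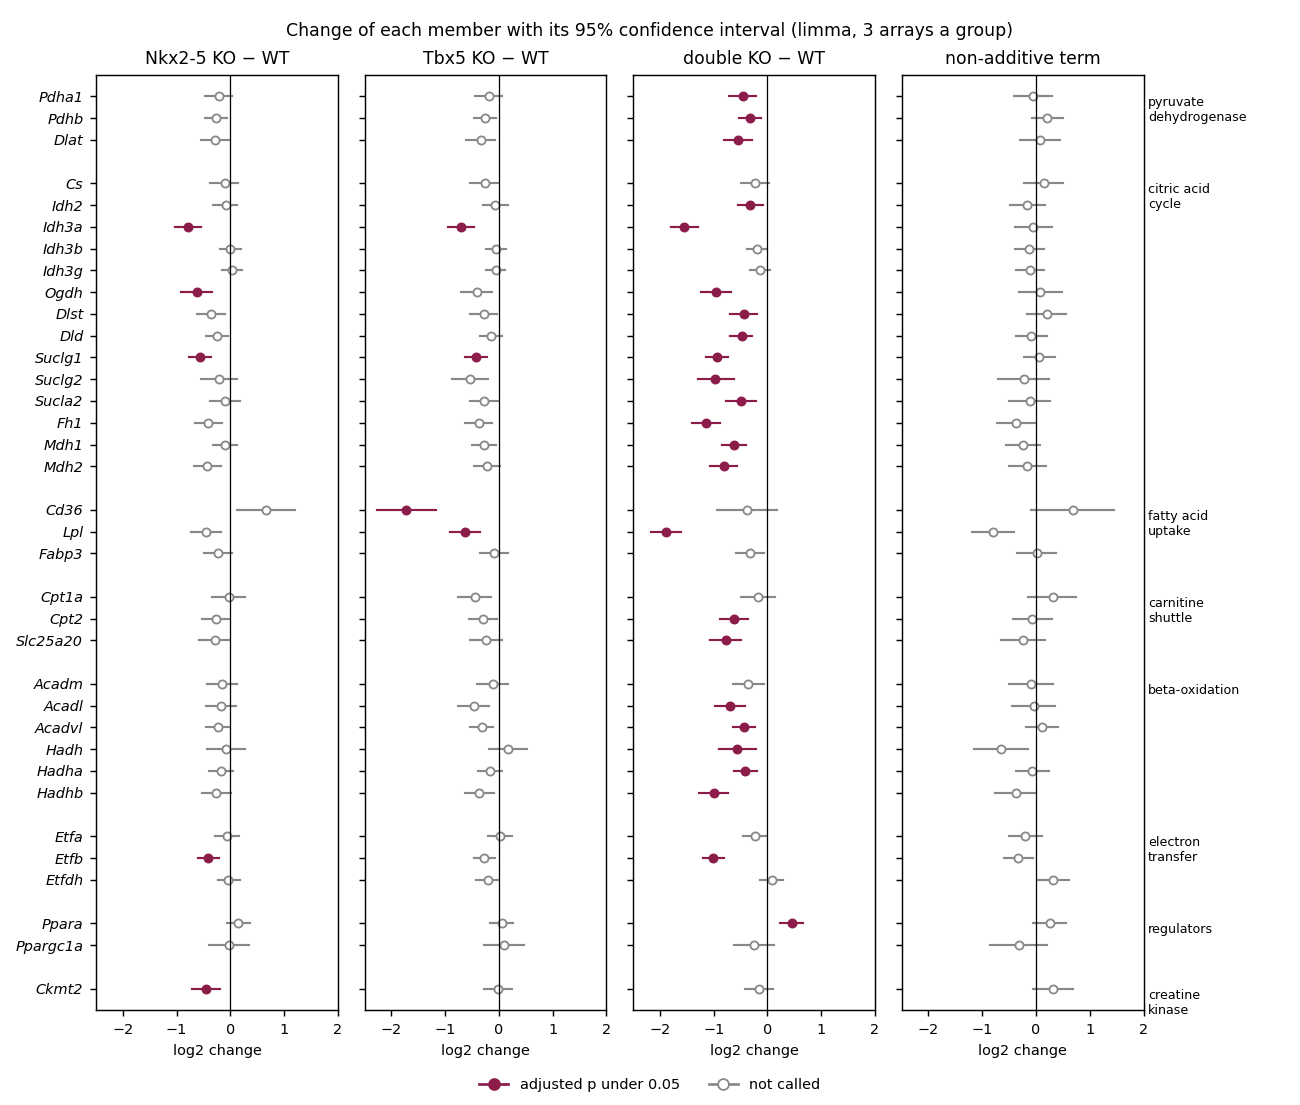
Change in log2 level of each of the 35 members (rows, grouped by role) for each KO against WT and for the non-additive term; points are limma estimates, lines 95% confidence intervals, and filled points have an adjusted p under 0.05. In the double KO panel 24 of 35 points are filled, 23 of them left of 0, while 5 are filled for Nkx2-5 KO, 4 for Tbx5 KO and none for the non-additive term.

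The promoter windows of 5 called members are shown because the results turn on them: Cd36 fell in the Tbx5 KO, and Suclg1, Fh1, Hadhb and Etfb fell in the double KO against WT and both single KOs. Each window runs from 250 bases before to 50 bases after a RefSeq start (assembly GRCm38.p6), 5′ to 3′ on the gene's strand. Capitals mark matches to AAGTG, the core of the Nkx2-5 binding motif, on either strand, where CACTT is the reverse complement. The windows are Suclg1 (chr6:73248255-73248554, plus strand), Fh1 (chr1:175625586-175625885, minus strand), Cd36 (chr5:17835847-17836146, minus strand), Hadhb (chr5:30155003-30155302, plus strand) and Etfb (chr7:43443822-43444121, plus strand).
Suclg1: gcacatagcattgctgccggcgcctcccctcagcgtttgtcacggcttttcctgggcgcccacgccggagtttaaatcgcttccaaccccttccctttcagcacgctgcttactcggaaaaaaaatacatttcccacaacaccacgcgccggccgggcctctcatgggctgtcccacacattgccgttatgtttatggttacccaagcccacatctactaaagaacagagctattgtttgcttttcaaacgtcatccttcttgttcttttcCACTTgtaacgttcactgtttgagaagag
Fh1: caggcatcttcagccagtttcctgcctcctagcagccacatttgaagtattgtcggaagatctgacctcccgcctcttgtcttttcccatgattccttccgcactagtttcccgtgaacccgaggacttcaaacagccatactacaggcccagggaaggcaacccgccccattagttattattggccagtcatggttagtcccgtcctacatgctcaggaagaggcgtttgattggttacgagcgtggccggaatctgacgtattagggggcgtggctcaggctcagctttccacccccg
Cd36: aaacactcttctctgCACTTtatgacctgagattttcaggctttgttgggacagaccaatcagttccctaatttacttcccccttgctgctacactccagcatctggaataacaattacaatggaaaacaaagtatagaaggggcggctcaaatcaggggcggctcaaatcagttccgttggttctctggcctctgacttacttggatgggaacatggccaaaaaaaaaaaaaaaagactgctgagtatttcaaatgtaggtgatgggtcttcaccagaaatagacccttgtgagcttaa
Hadhb: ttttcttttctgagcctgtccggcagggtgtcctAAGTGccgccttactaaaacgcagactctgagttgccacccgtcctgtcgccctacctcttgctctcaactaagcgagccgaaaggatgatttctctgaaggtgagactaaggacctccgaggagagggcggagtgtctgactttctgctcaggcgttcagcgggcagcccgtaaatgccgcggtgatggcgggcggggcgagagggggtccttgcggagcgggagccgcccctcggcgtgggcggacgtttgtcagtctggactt
Etfb: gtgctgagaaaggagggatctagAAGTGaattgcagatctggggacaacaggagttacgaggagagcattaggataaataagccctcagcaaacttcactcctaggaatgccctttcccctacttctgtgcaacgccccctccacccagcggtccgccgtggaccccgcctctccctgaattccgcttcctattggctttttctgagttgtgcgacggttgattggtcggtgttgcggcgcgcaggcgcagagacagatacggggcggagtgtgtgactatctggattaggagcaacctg
The Fh1 window holds no match to AAGTG. Each of the other 4 holds 1, which begins at base 22 from the start in Suclg1 and at -235, -216 and -227 from it in Cd36, Hadhb and Etfb, and none of the 5 holds GGTGTG, the T-box core, or AAGGTCA, a nuclear receptor half-site. The Cd36 window is at a start inside the span of the gene. RefSeq windows were found for 33 of the 35 members, with 38 windows in all, and the entries for Idh3a and Lpl are missing. AAGTG was present in 39.5% of member windows and 46.4% of all 32851 windows, GGTGTG in 21.1% and 19%, and AAGGTCA in 5.3% and 4.7%, searched on both strands. These matches are letters in a window and not binding sites. Hadha and Hadhb lie next to each other on chromosome 5, with 272 bases between the highest coordinate of Hadha (30154980) and the lowest of Hadhb (30155253). These are chromosome coordinates and do not give the direction in which Hadha is transcribed.

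Pyruvate dehydrogenase converts pyruvate to acetyl-CoA, and all 3 of its measured genes fell in the double KO while none passed the test in a single KO. These 3 genes lie in the top 20% by level, where 37.6% of genes fell in the double KO, beside 14.4% of all genes. In the Nkx2-5 KO 4.43% of all genes were called and in the Tbx5 KO 2.31%. Dlat, the acetyl-transferring core of the complex, read 10.75, 10.62 and 10.54 in WT, 10.41, 10.33 and 10.34 with Nkx2-5 lost, 10.25, 10.20 and 10.43 with Tbx5 lost and 10.37, 9.94 and 9.95 with both lost. Every KO array lay below every WT array, and Dlat fell by 0.55 ± 0.12 in the double KO (adjusted p = 0.006). Pdha1, the X-linked alpha subunit of the first enzyme, read 11.54, 11.68 and 11.38 in WT, 11.30, 11.28 and 11.35 with Nkx2-5 lost, 11.40, 11.22 and 11.41 with Tbx5 lost and 10.88, 11.07 and 11.26 with both lost. The double KO arrays lay below WT and overlapped the Tbx5 KO. It fell by 0.46 ± 0.11 (adjusted p = 0.0102), with the change at -0.30 and the adjusted p at 0.0566 after a further quantile normalization. Pdhb, the beta subunit of the same enzyme, read 11.29, 11.29 and 11.14 in WT, 10.88, 10.92 and 11.10 with Nkx2-5 lost, 10.97, 10.91 and 11.07 with Tbx5 lost and 10.98, 10.85 and 10.94 with both lost. All 3 KO groups lay below WT at about the same level, with changes of -0.27 without Nkx2-5, -0.26 without Tbx5 and -0.32 without both, of which only the last passed (adjusted p = 0.0246). That call ended without WT replicate 1 or 2 or double KO replicate 2, in a fit of the double KO and WT arrays alone, and after quantile normalization, with adjusted p from 0.0501 to 0.226 and a change as small as -0.17.

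The citric acid cycle is the largest role, and 11 of its 14 measured genes fell in the double KO, 3 in the Nkx2-5 KO and 2 in the Tbx5 KO. In the same order 14.4%, 2.59% and 1.31% of all genes fell, and 37.6%, 6.02% and 2.41% of the top 20% by level. The median change over the 14 was -0.56 in the double KO, -0.23 in the Nkx2-5 KO and -0.27 in the Tbx5 KO. Idh3a, the catalytic alpha subunit of NAD-dependent isocitrate dehydrogenase, had the largest fall of the 14 in each KO group. Its levels were 11.66, 11.38 and 11.30 in WT, 10.76, 10.61 and 10.60 with Nkx2-5 lost, 10.85, 10.56 and 10.79 with Tbx5 lost and 9.87, 9.92 and 9.91 with both lost. The 4 genotypes form 3 steps, with WT highest, both single KOs overlapping each other about 0.7 to 0.8 lower, and the double KO lowest with no overlap. Without Nkx2-5 it fell by 0.79 ± 0.11 (adjusted p = 0.0032) and without Tbx5 by 0.71 ± 0.11 (adjusted p = 0.00611). The double KO fall was 1.55 ± 0.11 (adjusted p = 5.79e-06), a 2.92-fold reduction. The non-additive term compares the double KO change with the summed changes of both single KOs, and it was -0.05 ± 0.16 (95% confidence interval -0.39 to 0.30), an interval that includes 0. Each of these 3 calls held in all 20 alternatives. The other subunits of the same enzyme, Idh3b and the X-linked Idh3g, passed no test against WT: their double KO changes were -0.19 ± 0.09 (adjusted p = 0.137) and -0.14 ± 0.08 (adjusted p = 0.239). Idh2, the NADP-dependent isocitrate dehydrogenase of the matrix, read 12.39, 12.57 and 12.53 in WT, 12.56, 12.36 and 12.29 with Nkx2-5 lost, 12.38, 12.39 and 12.51 with Tbx5 lost and 12.31, 12.03 and 12.18 with both lost. The double KO arrays lay below WT and overlapped the Nkx2-5 KO. Its double KO fall of 0.32 ± 0.10 (adjusted p = 0.0434) ended in 10 of 20 alternatives, with adjusted p from 0.0514 to 0.367 and a change as small as -0.14. Those were quantile normalization, a fit of the compared arrays alone, the replicate block, and the fits without WT replicate 2 or 3, Nkx2-5 KO replicate 2, Tbx5 KO replicate 1 or 2, or double KO replicate 2 or 3.

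**Figure D2:**
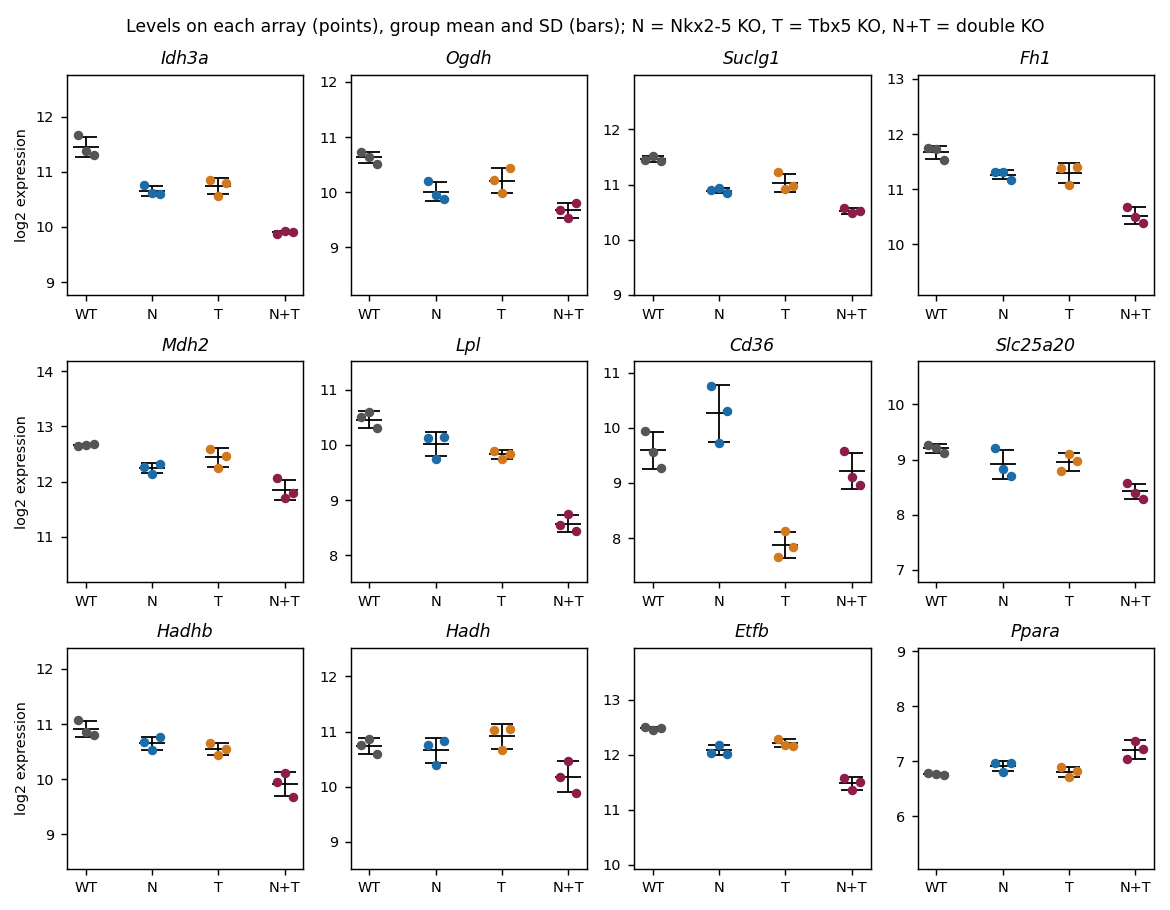
Log2 level on each of the 12 arrays (points, coloured by genotype, with the group mean and SD as bars) for 12 members, N for Nkx2-5 KO, T for Tbx5 KO and N+T for double KO; all panels span the same number of log2 units. The WT and double KO points of Idh3a, Lpl, Fh1 and Etfb do not overlap, whereas for Cd36 the Tbx5 KO points lie apart below the other groups.

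The next enzyme of the cycle, 2-oxoglutarate dehydrogenase, is built from Ogdh, Dlst and Dld, and all 3 genes fell in the double KO. Ogdh, its first and rate-limiting component, read 10.73, 10.64 and 10.52 in WT, 10.21, 9.95 and 9.87 with Nkx2-5 lost, 10.23, 9.98 and 10.44 with Tbx5 lost and 9.67, 9.54 and 9.81 with both lost. Every KO array lay below WT, and the double KO was lowest with no overlap. It fell by 0.96 ± 0.13 in the double KO (adjusted p = 0.00027) and by 0.62 ± 0.13 in the Nkx2-5 KO (adjusted p = 0.0211). The call in Nkx2-5 KO was lost when WT replicate 1 or Nkx2-5 KO replicate 2 or 3 was left out (adjusted p 0.0521 to 0.0916), and in the Tbx5 KO the change of -0.41 ± 0.13 was not called (adjusted p = 0.132). Dlst, the succinyl-transferring core, read 11.33, 11.15 and 11.22 in WT, 10.98, 10.73 and 10.88 with Nkx2-5 lost, 11.11, 10.77 and 10.97 with Tbx5 lost and 10.87, 10.60 and 10.89 with both lost. The 3 KO groups overlapped one another below WT, and the fall of 0.44 ± 0.12 in the double KO (adjusted p = 0.0156) ended without WT replicate 1 or double KO replicate 2 and after quantile normalization (change -0.29, adjusted p 0.0623 to 0.0768 over the 3 settings). Dld, the dihydrolipoamide dehydrogenase that this complex shares with pyruvate dehydrogenase, read 12.44, 12.38 and 12.26 in WT, 12.08, 12.07 and 12.19 with Nkx2-5 lost, 12.30, 12.11 and 12.25 with Tbx5 lost and 11.99, 11.84 and 11.80 with both lost. Its double KO arrays were all below those of the other groups, and it fell by 0.48 ± 0.09 (adjusted p = 0.00253, change -0.31 after quantile normalization and still called).

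Succinyl-CoA ligase makes the cycle's nucleoside triphosphate and has a common alpha subunit, Suclg1, with a GTP-forming (Suclg2) and an ATP-forming (Sucla2) beta subunit. Suclg1 was the only cycle gene besides Idh3a called in all 3 KO groups. It read 11.44, 11.52 and 11.43 in WT, 10.90, 10.93 and 10.85 with Nkx2-5 lost, 11.22, 10.91 and 10.97 with Tbx5 lost and 10.57, 10.48 and 10.52 with both lost. The WT arrays differed by less than 0.1, the single KO groups overlapped each other, and the double KO arrays lay below both. Without Nkx2-5 Suclg1 fell by 0.57 ± 0.09 (adjusted p = 0.00725), without Tbx5 by 0.43 ± 0.09 (adjusted p = 0.0324) and without both by 0.94 ± 0.09 (adjusted p = 3.84e-05). The Tbx5 KO call ended without any one of the WT arrays, Nkx2-5 KO replicate 1, or Tbx5 KO replicate 2 or 3, in a fit of the compared arrays alone and with the replicate block (adjusted p 0.0525 to 0.118). Suclg2 read 11.40, 11.54 and 11.44 in WT, 11.34, 11.10 and 11.30 with Nkx2-5 lost, 10.91, 11.13 and 10.75 with Tbx5 lost and 10.40, 10.21 and 10.87 with both lost. Double KO replicate 3 overlapped the Tbx5 KO range, and Suclg2 fell by 0.97 ± 0.15 in the double KO (adjusted p = 0.000739). A second Suclg2 probe set changed by -0.90. The annotation gives no position for either, so it is not settled here which measures the gene and which a near-identical copy, and this holds for the Suclg1 over Suclg2 ratio too. Probe-set numbers of the other members are grouped by chromosome. By number the kept Suclg2 set falls between those of the X-linked Idh3g and Pdha1. The second falls between those of Suclg1 (chromosome 6) and Etfb (chromosome 7), and the Suclg2 gene lies on chromosome 6. The part of embryo sex in the kept set's values was not tested. Sucla2 read 12.04, 12.09 and 12.20 in WT, 12.04, 11.95 and 12.02 with Nkx2-5 lost, 11.78, 11.88 and 11.87 with Tbx5 lost and 11.87, 11.69 and 11.29 with both lost. The double KO arrays lay below WT and overlapped the Tbx5 KO. Its double KO fall of 0.49 ± 0.13 (adjusted p = 0.0141) was no longer called without WT replicate 3, in a fit of the compared arrays alone and after quantile normalization (adjusted p 0.0527 to 0.11).

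The last steps of the cycle are fumarase and malate dehydrogenase. Fumarase, Fh1, read 11.74, 11.73 and 11.53 in WT, 11.31, 11.31 and 11.17 with Nkx2-5 lost, 11.39, 11.08 and 11.41 with Tbx5 lost and 10.68, 10.50 and 10.39 with both lost. Both single KOs lay between WT and the double KO without touching either, and the gene fell by 1.15 ± 0.12 in the double KO (adjusted p = 4.06e-05). Its single KO changes, -0.41 ± 0.12 (adjusted p = 0.0695) and -0.37 ± 0.12 (adjusted p = 0.126), were not called. Mitochondrial malate dehydrogenase, Mdh2, read 12.64, 12.66 and 12.69 in WT, 12.26, 12.14 and 12.32 with Nkx2-5 lost, 12.59, 12.25 and 12.47 with Tbx5 lost and 12.06, 11.71 and 11.79 with both lost. Every KO array lay below WT, and the double KO was again lowest. It fell by 0.81 ± 0.11 in the double KO (adjusted p = 0.000307), and its Nkx2-5 KO change of -0.43 ± 0.11 missed the threshold (adjusted p = 0.0524). The cytosolic enzyme of the malate-aspartate shuttle, Mdh1, read 12.26, 12.22 and 12.18 in WT, 12.14, 12.04 and 12.17 with Nkx2-5 lost, 12.04, 11.78 and 11.99 with Tbx5 lost and 11.55, 11.46 and 11.77 with both lost. Mdh1 fell by 0.63 ± 0.10 in the double KO (adjusted p = 0.000909) with no overlap with any other group. Citrate synthase, Cs, which starts the cycle, changed by -0.24 ± 0.12 in the double KO (adjusted p = 0.174), and its WT and double KO values overlapped.

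Several of these proteins work in fixed stoichiometry, so the log2 ratio between partner genes was compared on each array for 9 pairs, which were chosen after the values were seen. Against the WT mean, the ratio of Idh3a to Idh3b was 0.19, -0.15 and -0.05 in WT, -0.75, -0.75 and -0.87 with Nkx2-5 lost, -0.55, -0.82 and -0.57 with Tbx5 lost and -1.45, -1.25 and -1.37 with both lost. No KO array overlapped WT. The double KO difference in ratio was -1.36 for Idh3a over Idh3b, -1.40 for Idh3a over Idh3g, -0.51 for Ogdh over Dlst, -0.59 for Hadhb over Hadha and -0.77 for Etfb over Etfa. In these 5 pairs the WT and double KO arrays did not overlap. An exact permutation test of double KO against WT gave p = 0.1 for each of these 5 pairs (adjusted p = 0.18). With 3 arrays a group 0.1 is the smallest p it can give, so it cannot reach 0.05. Because the pairs were also picked for their values, the ratios only describe the unequal falls given above. The other 4 pairs overlapped between WT and double KO: Idh3b over Idh3g (-0.05), Suclg1 over Suclg2 (0.03), Suclg1 over Sucla2 (-0.45) and Pdha1 over Pdhb (-0.14). A ratio within an array shows unequal change of 2 probe sets and does not show which gene stayed constant.

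**Figure D3:**
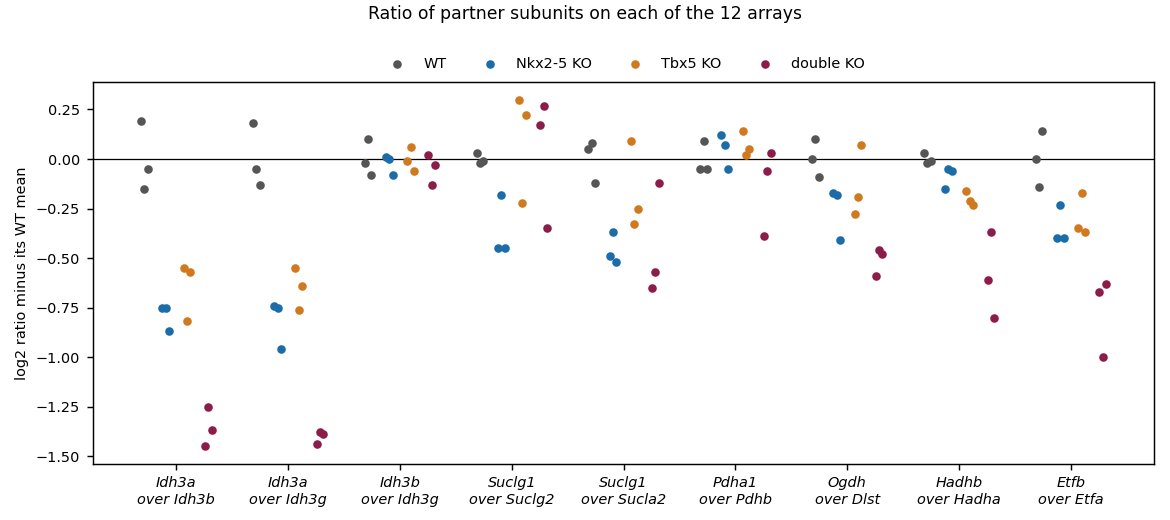
Log2 ratio of partner genes on each of the 12 arrays, as the difference from the WT mean, for 9 pairs chosen after the values were seen; points are single arrays coloured by genotype. The Idh3a ratios drop to about -1.4 in the double KO, while Idh3b over Idh3g stays near 0 in every group.

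The 3 measured genes of fatty acid uptake did not move together. Lpl, lipoprotein lipase, which releases fatty acids from circulating triglycerides, fell in the Tbx5 KO and further in the double KO, Cd36 fell in the Tbx5 KO, and Fabp3 was not called in any group. Lpl read 10.50, 10.59 and 10.30 in WT, 10.13, 9.75 and 10.15 with Nkx2-5 lost, 9.89, 9.75 and 9.84 with Tbx5 lost and 8.55, 8.74 and 8.43 with both lost. The single KO arrays lay below WT and overlapped each other, and the double KO arrays lay more than 1 log2 unit below all 9 others. Lpl fell by 1.89 ± 0.13 in the double KO (adjusted p = 4.01e-06), a 3.7-fold reduction and the largest fall of any member there. The Tbx5 KO fall of 0.64 ± 0.13 (adjusted p = 0.0214) was no longer called without WT replicate 1 or 2 or any one of the Tbx5 KO arrays (adjusted p 0.0579 to 0.0795), and the Nkx2-5 KO change of -0.45 ± 0.13 was not called (adjusted p = 0.0646).

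Cd36, the fatty acid translocase, had a different order of genotypes. It read 9.94, 9.57 and 9.27 in WT, 10.76, 9.72 and 10.31 with Nkx2-5 lost, 7.65, 8.13 and 7.83 with Tbx5 lost and 9.58, 9.10 and 8.96 with both lost. The Tbx5 KO arrays were all below the other 9, the Nkx2-5 KO arrays reached highest, and the double KO arrays overlapped WT. Cd36 fell by 1.72 ± 0.25 in the Tbx5 KO (adjusted p = 0.0041, 3.3-fold), while the Nkx2-5 KO change of 0.67 ± 0.25 (adjusted p = 0.173) and the double KO change of -0.38 ± 0.25 (adjusted p = 0.3) were not called. Compared directly, Cd36 was lower in Tbx5 KO than in Nkx2-5 KO by 2.39 (limma change -2.39 ± 0.25, adjusted p = 0.00024) and higher in double KO than in Tbx5 KO by 1.34 ± 0.25 (adjusted p = 0.00466). Its non-additive term of 0.68 ± 0.36 was not called (adjusted p = 0.642). Endothelial cells, macrophages and platelets also express Cd36. The mean level over 10 endothelial and endocardial markers was 9.63 to 10.42 in WT, 10.14 to 10.44 without Nkx2-5, 9.81 to 9.97 without Tbx5 and 9.79 to 9.91 without both. Over 5 macrophage and platelet markers it was 8.13 to 8.54, 7.39 to 8.61, 7.52 to 7.89 and 7.58 to 7.79 in the same order, so that the Tbx5 KO and double KO arrays lay below WT. Of these 5, Pf4, a platelet chemokine also made by embryonic macrophages, changed by -3.19 in the Tbx5 KO (adjusted p = 0.0876) and fell by 3.55 in the double KO (adjusted p = 0.0112), and the other 4 markers changed by -0.12 to 0.17 in the Tbx5 KO. The part of these cells in the Cd36 values was not tested. Fabp3, the heart-type fatty acid binding protein, changed by -0.24 ± 0.12 without Nkx2-5, -0.10 ± 0.12 without Tbx5 and -0.32 ± 0.12 without both, and the last missed the threshold (adjusted p = 0.0712).

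In the carnitine shuttle the inner-membrane genes fell in the double KO, where 14.4% of all genes fell, and the outer-membrane gene Cpt1a was not called. Slc25a20, the carnitine-acylcarnitine translocase, read 9.27, 9.21 and 9.12 in WT, 9.20, 8.83 and 8.70 with Nkx2-5 lost, 8.79, 9.10 and 8.97 with Tbx5 lost and 8.58, 8.40 and 8.29 with both lost. Its double KO arrays were all below the others, and it fell by 0.78 ± 0.13 (adjusted p = 0.00119). Cpt2, which reforms acyl-CoA in the matrix, read 9.64, 9.98 and 9.88 in WT, 9.65, 9.51 and 9.56 with Nkx2-5 lost, 9.59, 9.30 and 9.72 with Tbx5 lost and 9.15, 9.23 and 9.24 with both lost. Here too the double KO arrays lay below the rest, with a fall of 0.63 ± 0.12 (adjusted p = 0.00229). Cpt1a, the liver-type isoform of the rate-setting outer-membrane enzyme, changed by -0.45 ± 0.14 in the Tbx5 KO (adjusted p = 0.138) and -0.18 ± 0.14 in the double KO (adjusted p = 0.399).

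Of the 6 beta-oxidation genes, 5 fell in the double KO and none was called in a single KO. All 6 lie in the top 20% by level, where 37.6% of genes fell in the double KO, beside 14.4% of all genes. Of all genes 4.43% were called in the Nkx2-5 KO and 2.31% in the Tbx5 KO. The mitochondrial trifunctional protein, which carries out the last 3 steps of the spiral on long chains, is formed by Hadha and Hadhb. Hadhb, its thiolase subunit, read 11.08, 10.86 and 10.80 in WT, 10.67, 10.53 and 10.77 with Nkx2-5 lost, 10.65, 10.44 and 10.54 with Tbx5 lost and 9.95, 10.11 and 9.67 with both lost. Its double KO arrays lay below all others by at least 0.3, and it fell by 1.0 ± 0.12 (adjusted p = 0.000145). A second Hadhb probe set changed by -0.93. The annotation gives no position for it, so whether it measures the gene or a near-identical copy is not settled here. Hadha, the hydratase and dehydrogenase subunit, read 11.86, 11.69 and 11.61 in WT, 11.62, 11.38 and 11.63 with Nkx2-5 lost, 11.62, 11.46 and 11.58 with Tbx5 lost and 11.36, 11.28 and 11.27 with both lost. It fell by 0.41 ± 0.10 (adjusted p = 0.0102), with the change at -0.25 and the adjusted p at 0.0935 after quantile normalization. The single KO arrays of both genes overlapped each other.

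The first step of the spiral is catalysed by chain-length-specific acyl-CoA dehydrogenases. Acadl, for long chains, read 11.00, 11.00 and 10.55 in WT, 10.64, 10.62 and 10.76 with Nkx2-5 lost, 10.43, 10.27 and 10.43 with Tbx5 lost and 10.29, 10.23 and 9.95 with both lost. WT replicate 3 was low, below the Nkx2-5 KO arrays, and the double KO overlapped the Tbx5 KO. It fell by 0.69 ± 0.13 in the double KO (adjusted p = 0.00238), and its Tbx5 KO change of -0.47 ± 0.13 was not called (adjusted p = 0.0922). Acadvl, for very long chains, read 10.59, 10.48 and 10.61 in WT, 10.34, 10.30 and 10.33 with Nkx2-5 lost, 10.17, 10.28 and 10.29 with Tbx5 lost and 10.13, 9.94 and 10.28 with both lost. Every KO array was below WT, and Acadvl fell by 0.44 ± 0.10 in the double KO (adjusted p = 0.00545). Acadm, for medium chains, changed by -0.36 ± 0.13 in the double KO and missed the threshold (adjusted p = 0.0658). Hadh, the short-chain 3-hydroxyacyl-CoA dehydrogenase, read 10.76, 10.87 and 10.59 in WT, 10.75, 10.40 and 10.82 with Nkx2-5 lost, 11.03, 10.66 and 11.04 with Tbx5 lost and 10.18, 10.46 and 9.89 with both lost. The single KO arrays overlapped WT, and the double KO fall of 0.56 ± 0.16 (adjusted p = 0.0254) ended without WT replicate 1 or 2 or double KO replicate 1 or 3 and after quantile normalization (adjusted p 0.059 to 0.127).

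Electrons from the acyl-CoA dehydrogenases pass through the electron transfer flavoprotein, made of Etfa and Etfb, to its dehydrogenase Etfdh. Etfb read 12.51, 12.45 and 12.49 in WT, 12.03, 12.18 and 12.02 with Nkx2-5 lost, 12.29, 12.18 and 12.16 with Tbx5 lost and 11.58, 11.35 and 11.50 with both lost. The WT arrays differed by less than 0.1, both single KOs lay below them, and the double KO lay below all. Etfb fell by 1.01 ± 0.09 in the double KO (adjusted p = 2.17e-05) and by 0.41 ± 0.09 in the Nkx2-5 KO (adjusted p = 0.0256). The latter call was lost without WT replicate 1 or 3, without Nkx2-5 KO replicate 1 or 3, in a fit of the compared arrays alone and with the replicate block (adjusted p 0.0512 to 0.107). Etfa changed by -0.24 ± 0.10 in the double KO (adjusted p = 0.111) and Etfdh by 0.08 ± 0.09 (adjusted p = 0.579), and neither was called in any KO.

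The only member that rose was Ppara, the nuclear receptor that induces fatty acid oxidation genes in the adult heart. It read 6.79, 6.76 and 6.75 in WT, 6.97, 6.81 and 6.97 with Nkx2-5 lost, 6.90, 6.72 and 6.82 with Tbx5 lost and 7.04, 7.37 and 7.23 with both lost. The probe set is dim: its mean over the 12 arrays was 6.93, at percentile 18 of all genes, and Y-linked genes read up to 7.25 on the WT and Tbx5 KO arrays, where Xist was high. Its double KO arrays were all above the other 9, and it rose by 0.45 ± 0.10 (adjusted p = 0.00637, change 0.28 after quantile normalization and still called). In the lowest 20% of genes by level, 4.86% rose in the double KO. The part of the narrower spread of the double KO arrays in this rise was not tested. The coactivator Ppargc1a changed by -0.25 ± 0.17 in the double KO (adjusted p = 0.308), with -0.58 on a second probe set that was not tested. Ckmt2, the sarcomeric mitochondrial creatine kinase that buffers ATP, read 7.32, 7.28 and 7.48 in WT, 6.90, 6.93 and 6.86 with Nkx2-5 lost, 7.45, 7.17 and 7.44 with Tbx5 lost and 7.14, 7.04 and 7.45 with both lost. The Ckmt2 probe set is dim too, with a mean of 7.21 at percentile 22.7 of all genes, within the levels that Y-linked genes reached where Xist was high. Only the Nkx2-5 KO arrays lay apart from WT, with a fall of 0.46 ± 0.12 (adjusted p = 0.049) that ended in 11 of 19 alternatives (adjusted p 0.0513 to 0.16). These were the fits without any one WT or Nkx2-5 KO array, Tbx5 KO replicate 1 or 3, or double KO replicate 1, quantile normalization and the replicate block.

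The double KO was also compared with each single KO. Against the Nkx2-5 KO 10 members fell and none rose (all genes 5.56% called, 4.55% lower), a count that was 5 without Nkx2-5 KO replicate 1 or double KO replicate 2. Against the Tbx5 KO 11 members fell and 2 rose (all genes 10.7% called, 7.86% lower and 2.87% higher), 8 called in all without Tbx5 KO replicate 3. In the top 20% by level, 13.2% and 22% of genes fell in these comparisons. Idh3a, Suclg1, Fh1, Lpl, Hadhb and Etfb, 6 of the 35, fell in the double KO against WT and against both single KOs. The share of all genes that fell in all 3 comparisons was not counted, so this count has no background beside it. For Suclg1 the call against Nkx2-5 KO ended in 11 of 20 alternatives, among them the fit without any one array of those groups (adjusted p 0.0524 to 0.137), and the other 5 kept all 3 calls in every alternative. The members that rose against the Tbx5 KO were Cd36 and Ppara. For Ppara the rise of 0.40 ± 0.10 was lost without Tbx5 KO replicate 2 or 3, without double KO replicate 2, in a fit of the compared arrays alone and under both rescalings (adjusted p 0.0503 to 0.0993). Between the single KOs 1 member, Cd36, was called, where 2.39% of all genes were called and 1.37% were lower. That count was 2 without double KO replicate 3, when Ckmt2 was also called (0.46, adjusted p = 0.0369).

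No member passed limma's test of the non-additive term at an adjusted p under 0.05 (0 of 35, beside 0.547% of all genes), and 5 had an unadjusted p under 0.05. These were Lpl (-0.80 ± 0.18, adjusted p = 0.0794), Hadh (-0.65 ± 0.23, adjusted p = 0.355), Etfb (-0.33 ± 0.13, adjusted p = 0.444), Fh1 (-0.37 ± 0.16, adjusted p = 0.548) and Etfdh (0.32 ± 0.13, adjusted p = 0.482). An unadjusted p under 0.05 for this term was also reached by 1772 of all 19938 genes. Among the 3988 bright genes 562 reached it, and among the 28 bright members 4 did. For Lpl the term was called with array weights (-0.88, adjusted p = 0.017) and without Nkx2-5 KO replicate 2 (-0.93, adjusted p = 0.0363), and the adjusted p over its alternatives ran from 0.017 to 0.21. The median of the term over the members was -0.07, beside 0.02 over all genes and -0.1 over the bright ones.

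Averaged by role, the cycle genes differed from the WT mean by -0.36 to -0.22 without Nkx2-5, -0.40 to -0.23 without Tbx5 and -0.75 to -0.59 without both. The beta-oxidation genes differed by -0.31 to -0.11, -0.32 to -0.14 and -0.65 to -0.52 in the same order. The genes of fatty acid uptake differed by -0.26 to 0.22, -0.85 to -0.78 and -1.04 to -0.75, and here alone among these 3 roles the Tbx5 KO arrays overlapped the double KO arrays. A different gene carried that mean in each group: Cd36 (-1.72) in the Tbx5 KO, where Fabp3 was at -0.10, and Lpl (-1.89) in the double KO, where Cd36 and Fabp3 were not called. All 3988 genes of the top 20% by level averaged -0.30 to -0.16 on the double KO arrays, and the 12 cardiomyocyte markers -0.08 to -0.04.

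**Figure D4:**
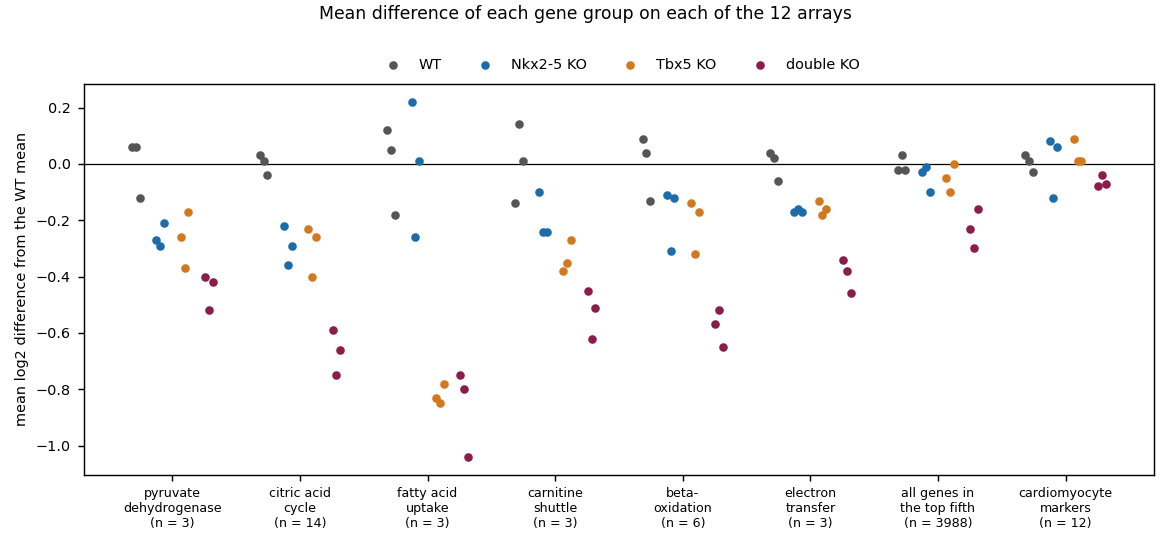
Mean log2 difference from the WT mean over the genes of each group (n, number of genes) on each of the 12 arrays, coloured by genotype. Cycle genes step down from WT to the single KOs to the double KO. Beta-oxidation genes are lowest in the double KO, while their WT (-0.13 to 0.09) and Nkx2-5 KO (-0.31 to -0.11) arrays overlap. The 3-gene mean of fatty acid uptake is lowest in the Tbx5 KO, through Cd36, and in the double KO, through Lpl. The cardiomyocyte markers stay within -0.12 to 0.09.

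Of other genes of the same pathways, 65 of a list of 69 were measured. In the double KO 18 fell and 2 rose, beside 14.4% and 9.05% of all genes, with a median change of -0.16. Acsl5, which activates long-chain fatty acids, fell in all 3 KO groups, by 1.53 ± 0.20 without Nkx2-5 (adjusted p = 0.00217), 1.28 ± 0.20 without Tbx5 (adjusted p = 0.00648) and 2.0 ± 0.20 without both (adjusted p = 4.16e-05). The other large falls in the double KO were the fatty acid binding protein Fabp5 (-1.29, adjusted p = 4.59e-05), the creatine synthesis enzyme Gatm (-1.19, adjusted p = 0.000699), the mitochondrial pyruvate carrier Mpc1 (-1.09, adjusted p = 0.00736) and Pdhx, which anchors Dld in pyruvate dehydrogenase (-1.07, adjusted p = 9.08e-05). The 2 that rose were Acsl4 (0.56, adjusted p = 0.0102, and 0.0529 with arrays centred on their medians) and Pdk1, a kinase that switches pyruvate dehydrogenase off (0.48, adjusted p = 0.00642).

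In the Nkx2-5 KO 4 of these 65 fell and 1 rose, beside 4.43% of all genes called and 2.59% lower. Pdk1 rose by 0.66 ± 0.11 (adjusted p = 0.0072), and Acsl5, Fabp4, Fabp5 and the ketone body enzyme Bdh1 fell. The Bdh1 call (-0.50, adjusted p = 0.036) ended without WT replicate 1 or 3 or any one Nkx2-5 KO array (adjusted p up to 0.13), and the Fabp5 call (-0.53, adjusted p = 0.0451) without any one WT or Nkx2-5 KO array, double KO replicate 1 or Tbx5 KO replicate 3 (adjusted p up to 0.146). The count of 5 was 3 when WT replicate 1 or 3 or the first Nkx2-5 KO replicate was left out. In the Tbx5 KO Acsl5 fell and Fabp4 rose, 2 of 65 beside 2.31% of all genes called. Fabp4, a fatty acid binding protein of endothelium and fat, thus fell by 0.61 ± 0.11 in the Nkx2-5 KO (adjusted p = 0.00937) and rose by 0.63 ± 0.11 in the Tbx5 KO (adjusted p = 0.0096), the reverse of the order of Cd36 between the same groups.

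Markers of the cell types a dissected heart can hold moved too, beside 14.4% of all genes lower and 9.05% higher in the double KO. Of the 12 cardiomyocyte markers, 2 fell in the double KO (Myh6 by 0.81 and Actn2 by 0.66) and 3 rose (Myh7 by 0.40, Ttn by 0.31 and Tnnt2 by 0.23), with a median change of 0.02. Their mean level was 12.87 to 12.92 in WT and 12.81 to 12.86 in double KO hearts. Of 10 endothelial and endocardial markers, 4 fell in the double KO (Tek, Emcn, Nfatc1 and Npr3) and Flt1 rose. Of 7 erythroid markers, 3 fell (Hba-x, Hbb-y and Hbb-bh1), and the mean erythroid level was 10 to 11.31 in WT and 9.37 to 10.13 in double KO hearts. Of 9 endoderm markers 4 rose, with mean levels of 7.72 to 8.12 in WT and 8.14 to 8.33 in double KO hearts. Of 6 neural markers Pax6 and Sox1 rose and Tubb3 fell in the double KO, with mean levels of 7.81 to 7.97 in WT and 8.21 to 8.28 in double KO hearts. Of 7 pharyngeal and neural crest markers Twist1 fell, and the mean levels overlapped WT. In the Tbx5 KO the 6 placenta and decidua markers had mean levels of 7.04 to 7.18, above the 6.62 to 6.82 of WT, and Prl4a1 and Hand1 rose (Hand1 is also a heart gene). There Sox17 and Pax6 rose too, and Tubb3 fell. In the Nkx2-5 KO, where 4.43% of all genes were called, 1 of 12 cardiomyocyte markers was called. That marker was Nkx2-5 itself, the gene knocked out, which is on the list. There 2 of 9 endoderm, 2 of 6 neural and 1 of 6 placenta and decidua markers were called too, and none of the endothelial, erythroid, macrophage and platelet or pharyngeal lists. The part of these cell types, of the narrower spread of the double KO arrays and of embryo sex in the members' changes was not tested.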

How the data were processed

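Expression was measured on 12 arrays of dissected hearts, 3 per genotype. Per the labels' protocols, RNA was isolated with PicoPure, amplified with NuGEN Ovation and labelled with NuGEN Encore. The authors deposited log2 values per probe set. Their summarization and normalization are not given in the sources used here. Values ran from 3.21 to 14.7, with array medians from 8.05 to 8.25, and no pair of arrays was identical. The number of arrays limits the precision.

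Of 35557 probe sets, 21789 carried 1 gene symbol in the platform annotation, 1621 several and 12147 (34.2%) none. Of the single-symbol probe sets, 21698 matched RefSeq (GRCm38.p6) by Entrez number. The brightest single-symbol probe set by mean over the arrays stood for a gene (999 genes had several), which left 19938 genes, all tested. With limma 3.58.1 in R 4.3.3, lmFit and eBayes fitted the 4 group means over the 12 arrays (8 residual and 4.51 prior degrees of freedom; two-sided). The code of the fit was run on simulated arrays with known changes. Those arrays lacked the narrower spread of the double KO arrays, so the run does not bear on it. Alternatives were quantile normalization, centring, array weights, an intensity trend, the replicate number as a block, only the arrays compared, leaving out the lowest 30% of genes, the mean of a gene's probe sets, and each array left out. P-values cover only the spread between these samples, whose litters the labels do not name.

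All members are named. Array values are given for members called against WT, and of the other pathway genes up to 5 higher and 5 lower calls per KO. The members and lists were chosen with earlier results of these data known.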

Additional observations from a re-analysis of the deposited data

Results flagged for a closer look

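Cd36 stood out because its changes against WT differed between the single KOs, at 0.67 ± 0.25 without Nkx2-5 (limma, adjusted p = 0.173, not called) and -1.72 ± 0.25 without Tbx5 (adjusted p = 0.0041), and their direct comparison passed the test. Tbx5 KO minus Nkx2-5 KO was -2.39 (limma, adjusted p = 0.00024, n = 3 arrays a group), the groups did not overlap, and the call held in all 20 alternatives.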

How the results depend on the processing

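No call of a member changed direction: over the alternatives 1020 values kept their side of the threshold, 117 lost the call and 0 reversed. Of the 24 double KO calls against WT 17 held in every alternative, of the 5 Nkx2-5 KO calls 2, and of the 4 Tbx5 KO calls 2. With array weights the members called were 9 in Nkx2-5 KO, 2 between the single KOs and 1 in the non-additive term (Lpl). A fit of only the arrays compared called 6 members between double KO and Nkx2-5 KO. Leaving out 1 array gave 2 to 6 members called without Nkx2-5, 2 to 5 without Tbx5, 21 to 24 without both, 5 to 13 between double KO and Nkx2-5 KO, 8 to 13 between double KO and Tbx5 KO, 1 to 2 between the single KOs, 0 to 1 in the non-additive term and 16 to 20 in the F test. With the replicate number as a block 3 members were called without Nkx2-5, 3 without Tbx5 and 23 without both. The numbers did not pair the arrays: deviations of same-numbered arrays correlated at -0.27 to 0.21, and 2 of 12 arrays correlated best with their own number. Of the other pathway genes 3 to 7 were called in Nkx2-5 KO and 16 to 21 in double KO with 1 array left out.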
